A study of Sorghum bicolor with 8 samples.

Results

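Genes that carry one common position in the deposited expression table of sorghum prop roots are described here. A gene was a member when its locus (chromosome, start and end) was identical to that of at least 1 other gene. The rule found 4052 genes in 1913 shared loci, out of 34129 genes in 31990 loci, and the other 30077 genes were alone in theirs. The common position is taken as a sign of overlap, but which genes of a locus overlap each other was not examined. RNA was sequenced from prop roots of Sorghum bicolor cultivar BRS330, with 4 libraries in ambient CO2 (400 µmol per mol) and 4 in elevated CO2 (800 µmol per mol). Both groups shared the same water deficit: irrigation was 1.5 L per day until day 60 after planting and 0.45 L per day, a cut of 70%, for the 30 days after that. Whether each library was made from a plant of its own is not stated in the labels. For each group the authors pooled the libraries into 1 level per gene, in FPKM (fragments per kilobase of transcript, corrected for library size), so no value has an SD.

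Plant genes overlap in several ways: neighbours transcribed towards each other can share their ends, a small gene can lie inside an intron of a larger one, and transcripts can run antisense to each other. Such arrangements are known to allow interference between transcription of both partners and the formation of small RNAs from paired transcripts. They also make reads from the overlap hard to assign to 1 gene. The library kit keeps the strand of the RNA, per the labels' protocols, but whether strand was used in counting is not stated, so values of overlapping or antisense partners may contain reads of each other and are uncertain to that extent. Prop roots are aerial roots that grow from lower stem nodes, and in sorghum they are often green. No identifier, as deposited, matched the list of gene names at hand, and a conversion to other identifiers was not tried. Neither the tissue's marker genes nor the roles of the members were therefore examined here.

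Most shared loci held few genes: 1709 held 2, 182 held 3 and 22 held 4. In 1893 of the 1913 loci (99.0%) the genes had consecutive identifiers in the table, and no deposited locus overlapped another one. Identifiers with an intermediate number, that is not a multiple of 100, made up 21.0% of the members (850 genes) and 14.5% of the genes alone in their locus. A shared locus spanned 7348 bp at the median and the locus of a lone gene 2741 bp. Shared loci lay on all 10 chromosomes, where members were between 9.38% of the annotated genes (chromosome 8) and 13.7% (chromosome 9). A single further shared locus, of 2 genes, lay on an unplaced scaffold.

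Expression of at least 2 FPKM in either group was reached by 1940 members (47.9%) and by 48.8% of the genes alone in their locus. Both groups were listed at 0 for 773 members (19.1%), beside 21.4% of lone genes. The authors tested 1890 members, whose median level was 10.4 FPKM under ambient and 10.01 FPKM under elevated CO2. Lone genes that were tested had medians of 13.5 and 12.9 FPKM. In 463 shared loci no gene reached 2 FPKM, in 982 exactly 1 did, and in 468 at least 2 did. Those 468 loci are the ones in which genes of the same locus could be compared.

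Genes that the authors tested and that have a q-value under 0.05 in the authors' deposited table are referred to as called. Of the 1890 tested members 102 were called (5.40%), while 11.5% of all 16280 tested genes were. Under elevated CO2, 86 members fell (4.55% of those tested, against a background of 9.04%) and 16 rose (0.847%, against 2.42%). The median change of all tested members, as log2((elevated + 1)/(ambient + 1)), was -0.01, and that of all tested genes was -0.03. In bulk tissue, fewer cells of a type and less RNA per cell cannot be told apart behind any of these changes.

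The 102 called members lay in 102 different loci, so no locus of the authors' deposited table had 2 called genes. Only 447 shared loci had at least 2 tested genes, where 2 calls were possible, and few genes of such loci were called at all. Calls were also uneven between kinds of shared loci. Where at most 1 gene reached 2 FPKM, 86 of 955 tested genes were called (9.01%), 70 lower and 16 higher. In the 468 loci with at least 2 genes at 2 FPKM, 16 of 935 tested genes were called (1.71%), all of them lower and none higher. By unadjusted p under 0.05 from the authors' test (Cuffdiff), 42 genes of these loci were lower (4.49% of the 935) and 17 higher (1.82%), while over all tested genes the shares were 14.8% and 5.83%. The same limit was passed by 2 genes at once in 1 of the 447 loci with at least 2 tested genes. In that locus, on chromosome 2 from 3103060 to 3114102 and singled out after its values were seen, the first gene was listed at 13.05 FPKM under ambient and 25.5 FPKM under elevated CO2 (unadjusted p = 0.0114, q = 0.0825 in the authors' deposited table). Its partner was listed at 1.97 and 6.31 FPKM (unadjusted p = 0.0305, q = 0.170 in the authors' deposited table). Both were higher in elevated CO2, and neither was called.

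The 468 loci held 1035 genes, of which 958 reached 2 FPKM and 77 did not. A pair was formed in each locus from the genes with the highest and the second highest mean FPKM among those at 2 FPKM or more, called the higher and the lower gene here. The higher gene ranged from 2.12 to 1676 FPKM in ambient CO2, with a median of 18.3, and from 0.778 to 1368 FPKM in elevated CO2, with a median of 18.1. For the lower gene the ambient median was 4.68 FPKM (0.669 to 117) and the elevated median 4.97 FPKM (0.530 to 113). The lower gene held 0.347 of the level of the higher one at the median in ambient CO2 (quartiles 0.157 and 0.609) and 0.355 in elevated CO2 (quartiles 0.171 and 0.633). FPKM is per length, so these ratios compare transcripts, not reads. Partners of unlike level were common. The lower gene had under 0.1 of the mean level of the higher gene in 71 loci and at least 0.8 of it in 48.

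The order of the pair differed between the groups in 36 of 468 loci (7.69%). Where a single gene of the pair had an intermediate identifier number, it was the lower one in 40 loci and the higher one in 20. At the limit of 2 FPKM there was no gap in the data. The second gene of a locus was at 1.92, 1.95 and 1.99 FPKM in the 3 loci just outside and at 2.01 FPKM in each of the 3 just inside, and 39 loci lay between 1.5 and 2 FPKM and 51 between 2 and 2.5.

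The changes of genes of the same locus were only weakly related. On the scale of log2((elevated + 1)/(ambient + 1)) they differed by 0.30 at the median (quartiles 0.15 and 0.53), while the median absolute change itself was 0.22 for the higher and 0.20 for the lower gene. In 245 of 468 pairs the changes had the same sign (52.4%, 95% Wilson interval 47.8 to 56.8%, which covers counting error over loci only). Over the 468 pairs Pearson's r was 0.15 and Spearman's rho 0.09. Each point is 1 locus, and both of its values come from the same pooled libraries and may share reads. Differences of at least 1 on the log2 scale were found in 42 pairs (8.97%). Both genes moved by at least 0.5 in 25 pairs: upwards in 8, downwards in 10 and in opposite directions in 7.

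**Figure D1:**
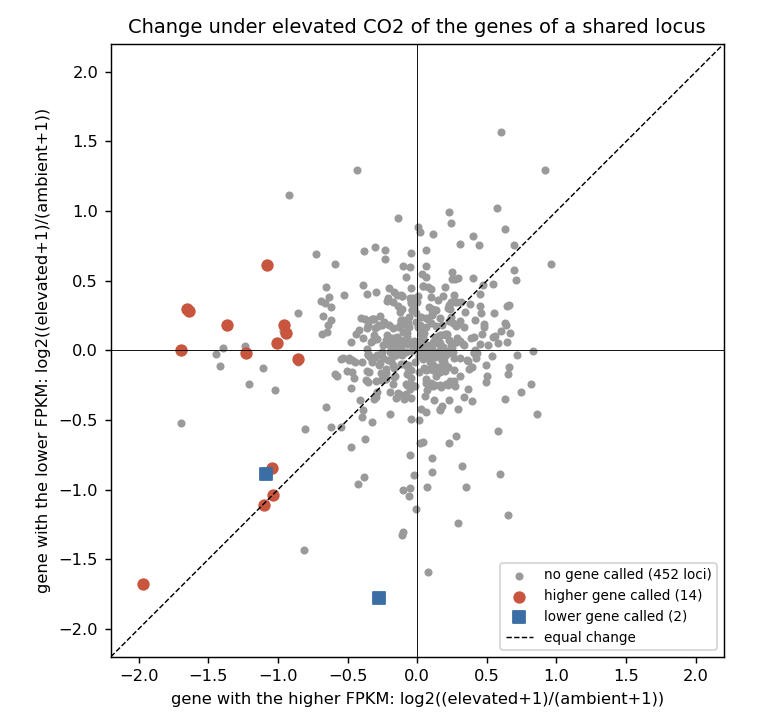
Change of the higher gene (x axis) against that of the lower gene (y axis) of each of the 468 shared loci, as log2((elevated + 1)/(ambient + 1)) from pooled FPKM, with called genes marked and a dashed line of equal change. The points form a cloud around 0 with r = 0.15, and in 5 of the 16 loci with a called gene the other gene was lower by at least 0.5 as well.

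The difference between partners was also taken by features of the locus. It was 0.30 at the median both in loci of exactly 2 genes (383 pairs) and in those of 3 or 4 genes (85 pairs). The correlation was lower for partners of like level. With the lower gene at 0.25 or more of the higher, Pearson's r was 0.03 over 297 pairs. With under 0.1 it was 0.43 over 71 pairs, where Spearman's rho was 0.23. The median difference was 0.32 in both of these sets, and 50.8% and 53.5% of their pairs had the same sign. Pairs containing an intermediate identifier number differed by 0.24 at the median (66 pairs) and the others by 0.31 (402 pairs). By chromosome the median difference ran from 0.17 on chromosome 5 (18 pairs) to 0.40 on chromosome 6 (45 pairs). These subsets were chosen after the values had been seen and are given without a test.

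Consecutive genes in different loci were examined in the same way, to set sharing a locus beside closeness alone. Among 8546 such pairs with both genes at 2 FPKM or more, the median difference in change was 0.34, 55.2% had the same sign and Pearson's r was 0.22. Both genes moved by at least 0.5 upwards in 74 of these pairs, downwards in 405 and in opposite directions in 137. Inside the 468 shared loci the counts were 8, 10 and 7. With a gap under 1 kb between the loci (2121 pairs) the median difference was 0.30, 54.6% had the same sign and r was 0.14, beside 0.30, 52.4% and 0.15 inside shared loci. At 1 to 5 kb the values were 0.34, 53.4% and 0.23 (3414 pairs). Pairs 5 to 20 kb apart differed by 0.40 at the median (2251 pairs) and those 20 kb or more apart by 0.35 (760 pairs). In these last sets 58.4% and 55.9% had the same sign, and r was 0.22 and 0.27. The median absolute change at 5 to 20 kb was 0.26 for higher and lower genes alike, beside 0.19 and 0.20 under 1 kb. At 5 kb or more, larger median differences thus did not go with a lower r or same-sign share than under 1 kb. No test of these differences was made, and pairs that overlap in a gene are not independent.

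**Figure D2:**
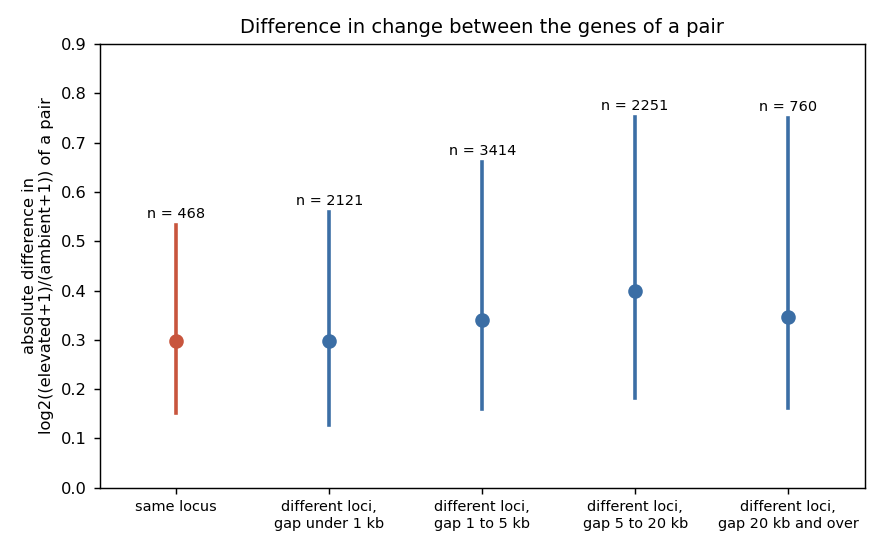
Absolute difference in log2((elevated + 1)/(ambient + 1)) between the genes of a pair, for pairs in the same locus and for consecutive genes in different loci by the gap between them. Points are medians, lines run from the first to the third quartile and n is the number of pairs. Medians go from 0.30 in the same locus and under 1 kb to 0.40 at 5 to 20 kb.

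Joint calls were counted in both kinds of pairs. Among consecutive genes in different loci, both were called in 217 of 8232 pairs with both genes tested (2.64%), of which 195 moved the same way. With a gap under 1 kb both were called in 18 of 2056 (0.875%), and inside shared loci in 0 of 447. Inside shared loci 14 of 468 tested higher genes and 2 of 447 tested lower genes were called. From these shares alone few or no joint calls were to be expected. A single gene of the pair was called in 1487 of the 8232 pairs (18.1%), in 266 of the 2056 (12.9%), and in 15 of the 447 (3.36%).

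The 8 loci with the largest difference between their genes split into those with and without a call. The largest difference, 2.03, was on chromosome 5 from 17176426 to 17188617. There the first gene went from 3.95 FPKM under ambient to 9.72 FPKM under elevated CO2 (log2 1.11, q = 0.420 in the authors' deposited table). The second gene went the other way, from 9.26 to 4.44 FPKM (log2 -0.92, q = 0.0735 in the authors' deposited table), so that the order of the pair was turned and neither gene was called. On chromosome 6 from 51320977 to 51325872 the levels also crossed without a call. The first gene was at 4.30 FPKM under ambient and 1.34 under elevated CO2, and the second at 3.06 and 5.39. That first gene reached the limit of 2 FPKM in ambient CO2 only, which favoured a fall.

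In 4 of these 8 loci 1 gene fell while its partner did not pass the test. On chromosome 1 from 17077364 to 17085562, the first gene fell 3.66-fold, from 15.4 to 4.22 FPKM (q = 0.00202 in the authors' deposited table). Its partner was at 3.27 FPKM under ambient and 4.24 FPKM under elevated CO2 (q = 0.909 in the authors' deposited table), so the fallen gene came down to the level of its partner. On chromosome 3 from 1534572 to 1544660, the first gene fell 4.08-fold, from 8.94 to 2.19 FPKM, and the second was listed at 3.01 and 3.88 FPKM (q = 0.00365 and 0.851 in the authors' deposited table). A second such locus on that chromosome, from 67937590 to 67949527, had a gene that fell 2.14-fold, from 96.5 to 45.1 FPKM, beside one at 16.2 FPKM under ambient and 25.4 under elevated CO2 (q = 0.0135 and 0.871 in the authors' deposited table).

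The clearest contrast at high level was on chromosome 9 from 55999398 to 56008912. The third gene of that locus fell 3.28-fold, from 214 to 65.3 FPKM (log2 -1.70, q = 0.00112 in the authors' deposited table). The first gene was listed at 107.7 FPKM under ambient and 108.1 FPKM under elevated CO2 (log2 0.01, q = 0.999 in the authors' deposited table). The gene between them by number was nearly silent, at 0.191 and 0.119 FPKM. Here the falling gene was the more abundant one in ambient CO2 and the less abundant one in elevated CO2.

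The last 2 of the 8 loci held genes whose values differed widely without passing the authors' test. On chromosome 7 from 59601979 to 59608684, the third gene was at 7.20 FPKM under ambient and 19.1 under elevated CO2 (log2 1.30, q = 0.338 in the authors' deposited table), while the first was at 29.2 and 21.4. On chromosome 4 from 1567079 to 1576745, the first gene was at 6.32 and 1.43 FPKM (log2 -1.59, q = 0.434 in the authors' deposited table) beside a partner at 6.70 and 7.13. This first gene, too, reached 2 FPKM in ambient CO2 only.

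In some loci both genes had values that differed in the same direction, though the authors' test called at most 1 of them. The higher gene moved by at least 1 on the log2 scale in 20 of 468 loci, downwards in all 20, and 11 of these genes were called. Of 14390 tested lone genes, 1220 moved by at least 1 in either direction, and their share by direction was not taken. Among all called genes, of any size of change, 78.9% were lower in elevated CO2. That share is taken over another set and is no direct background for the 20. In the 20 loci the lower gene moved the same way by at least 0.5 in 6. It differed by under 0.5 in 13 and moved the other way by at least 0.5 in 1. The lower gene moved by at least 1 in 18 loci, downwards in 13 of them, and 1 of these 18 genes was called. The limit of 2 FPKM in either group favoured large moves in genes that reached it in a single group, and these were not counted. In 3 loci both genes moved by at least 1. Among the 20 loci whose higher gene moved by at least 1, the 5 closest pairs were picked for their small difference in change. It ran from 0.01 to 0.30, and being selected on, it is no measure of agreement. On chromosome 1 from 73058803 to 73064545, the first gene fell 4.04-fold, from 96.3 to 23.8 FPKM (q = 0.00112 in the authors' deposited table). Its partner was listed at 6.07 FPKM under ambient and 1.22 under elevated CO2, a 4.99-fold difference that was not called (q = 0.339 in the authors' deposited table). On chromosome 4 from 58025231 to 58033140, the second gene fell 2.07-fold, from 91.5 to 44.2 FPKM, and the first was at 4.07 and 1.47 FPKM (q = 0.00284 and 0.675 in the authors' deposited table). A similar pair on chromosome 3, from 58040656 to 58047342, had a gene that fell 2.16-fold, from 133 to 61.7 FPKM (q = 0.00437 in the authors' deposited table), and a partner at 2.30 and 0.530 FPKM that the authors did not test.

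In the other 2 of the 5 pairs, too, a single gene was called. On chromosome 6 from 56721548 to 56726911, the first gene fell 2.06-fold, from 551 to 267 FPKM (q = 0.0371 in the authors' deposited table). The second was at 117 FPKM under ambient and 65.0 under elevated CO2, a 1.80-fold difference with q = 0.814 in the authors' deposited table. On chromosome 8 from 2230277 to 2241760 the call fell on the less abundant gene, which went from 2.65 to 0.969 FPKM (q = 0.0164 in the authors' deposited table). The more abundant partner was listed at 16.5 and 7.20 FPKM, a 2.28-fold difference with q = 0.295 in the authors' deposited table. Except in the pair on chromosome 6, the less abundant gene of these 5 pairs reached 2 FPKM in ambient CO2 only. The limit of 2 FPKM in either group thus favoured a fall in those genes.

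**Figure D3:**
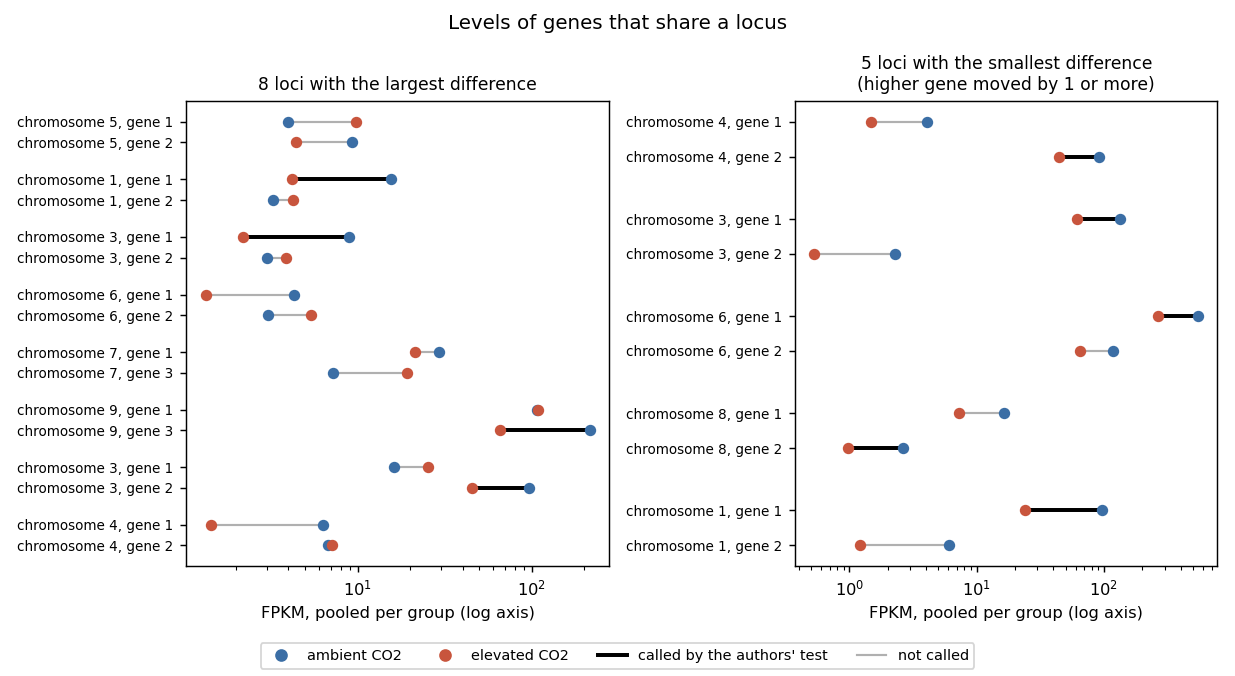
Pooled FPKM (log axis) in ambient and elevated CO2 of the genes at 2 FPKM or more in the 8 loci with the largest difference in change (left, from 2.03 down to 1.67) and the 5 with the smallest difference among those whose higher gene moved by at least 1 (right, from 0.01 to 0.30). Genes are numbered in identifier order within a locus, and thick lines mark called genes: 4 of the 8 loci on the left and all 5 on the right hold a single called gene.

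In 4 of the 5 loci with the highest summed FPKM 1 gene held nearly all of the level. On chromosome 6 from 6967373 to 6980060, the second gene was listed at 1676 FPKM under ambient and 1368 under elevated CO2 and the first at 25.5 and 21.8 (log2 -0.29 and -0.22), and neither was called. On chromosome 2 from 69784990 to 69793000, the first gene was at 998 and 431 FPKM, a 2.31-fold difference that did not pass (q = 0.161 in the authors' deposited table), beside a partner at 19.3 and 16.1. Another locus on chromosome 2, from 71085141 to 71095763, held a gene at 569 and 442 FPKM over one at 4.35 and 4.97. On chromosome 1 from 64007828 to 64018246, a gene at 376 FPKM under ambient and 393 under elevated CO2 shared its locus with one at 25.1 and 22.6 and one under 0.1 FPKM in both groups. The other of the 5 was the locus on chromosome 6 with levels of 551 and 117 FPKM in ambient CO2, where the lower gene had 0.213 of the level of the higher one, and this was the most abundant lower gene of all 468 pairs in ambient CO2.

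At least 3 genes at 2 FPKM or more were found in 21 loci. The authors tested 62 of their genes with Cuffdiff and called 0, and 0 had an unadjusted p under 0.05. At a called share of 1.71%, as over all 468 loci, so few genes would hold few calls. The share at unadjusted p under 0.05 in Cuffdiff was 6.31% over these 468 loci. Over all tested genes the shares were 11.5% called and 20.6% at that unadjusted limit. The range of changes within such a locus was 0.28 at the median, from 0.03 to 1.43, and in 6 of the 21 all genes had the same sign. The only locus with 4 such genes lay on chromosome 10 from 18274378 to 18292770. Its genes were listed, in identifier order, at 12.06, 2.50, 11.5 and 8.55 FPKM in ambient and at 12.2, 2.63, 11.9 and 7.14 FPKM in elevated CO2, so the order of their levels was the same in both groups. On chromosome 9 from 51777614 to 51800133, 3 genes were at 255, 22.3 and 38.2 FPKM in ambient and at 213, 22.6 and 32.8 in elevated CO2, with a further gene near 0. The widest range was on chromosome 6 from 57439136 to 57442937. There the first gene was at 152 and 231 FPKM and the third at 37.5 and 113 FPKM (log2 0.60 and 1.57, q = 0.573 and 0.663 in the authors' deposited table), and the gene between them at 5.01 and 5.62.

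Called members mostly shared their locus with genes of little or no expression. In 86 of the 102 the most abundant partner stayed under 2 FPKM in both groups, and in 26 it was listed at 0 in both. All 16 members that rose were of this kind. That the authors tested none of their partners follows from the grouping, since no tested gene was under 2.03 FPKM in its higher group. Such loci were common among tested members in general: 955 of all 1890 lay in loci with at most 1 gene at 2 FPKM. The share of tested members with a partner at 0 was not taken. The largest rises, chosen after the values were seen, were those of Sobic.001G369500 and Sobic.007G011200. Sobic.001G369500 (chromosome 1, 65803652 to 65807685) went from 9.63 to 28.1 FPKM (log2 1.45, q = 0.00112 in the authors' deposited table). Sobic.007G011200 (chromosome 7, 999189 to 1005074) went from 45.2 to 104.7 FPKM (log2 1.19, q = 0.00112 in the authors' deposited table). Each shared its locus with a gene listed at 0 in both groups.

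Members that fell had a median change of -1.11, and 70 of their 86 partners were under 2 FPKM, 21 of them at 0 in both groups. The largest falls, likewise chosen after the values were seen, were those of Sobic.003G267100 and Sobic.002G336600. Sobic.003G267100 (chromosome 3, 60381364 to 60393063) went from 18.7 to 1.94 FPKM (log2 -2.75, q = 0.00112 in the authors' deposited table), over a partner at 0.0229 and 0.0662 FPKM. Sobic.002G336600 (chromosome 2, 70424170 to 70432235) went from 619 to 138 FPKM (log2 -2.15, q = 0.00112 in the authors' deposited table), over a partner at 0.197 and 0.124 FPKM. For the 16 with a partner at 2 FPKM or more, 8 partners had the same sign and 8 the opposite one, and the partner was lower by at least 0.5 in 5 and higher by at least 0.5 in 1. The lowest q-value of any partner of a called member was 0.295 in the authors' deposited table, and none of the 15 partners tested had an unadjusted p under 0.05. Over all pairs that limit of Cuffdiff was passed by 7 of 447 tested lower genes and 52 of 468 higher genes. Of the 16 partners only 2 were the more abundant gene, so few or none of the 15 were to be expected to pass.

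Calls were also counted at a given size of change. Where the absolute log2 change was 1 or more, 1109 of 1220 tested lone genes were called (90.9%, 95% Wilson interval 89.2 to 92.4%). In shared loci whose other genes stayed under 2 FPKM the count was 48 of 57 (84.2%, 72.6 to 91.5%). It was 11 of 20 for the higher gene of a pair (55.0%, 34.2 to 74.2%) and 1 of 17 for the lower gene (5.88%, 1.05 to 27.0%). Between 0.5 and 1 the called shares were 29.8% of 2193 lone genes, 29.5% of 129 genes with partners under 2 FPKM, 4.69% of 64 higher genes and 1.72% of 58 lower genes. Level differed between these sets. Within 2 to 10 FPKM in the higher group, a change of at least 1 was called in 335 of 421 lone genes (79.6%) and in 0 of 12 lower genes of pairs, and at 10 to 50 FPKM in 474 of 487 (97.3%) and 1 of 4.

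**Figure D4:**
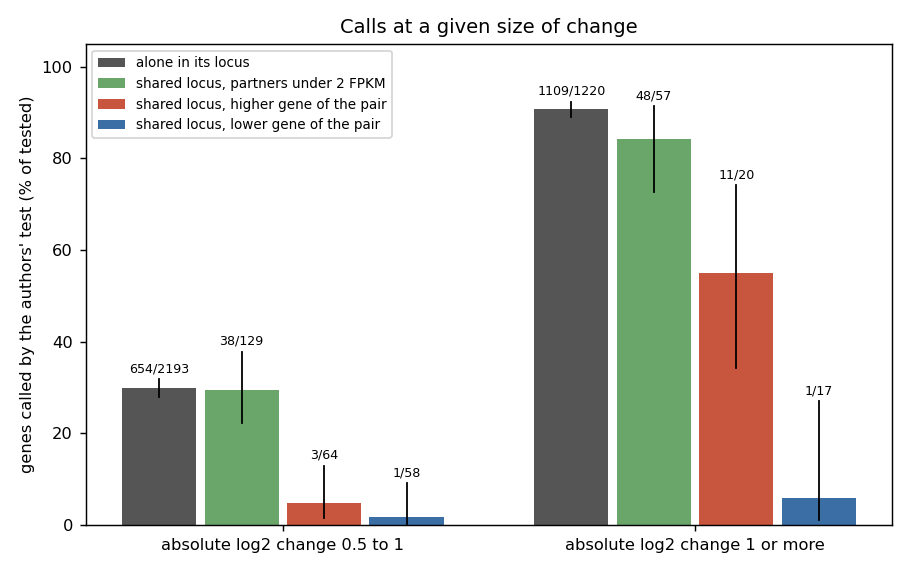
Share of tested genes called by the authors' test, in percent, for 2 ranges of absolute log2((elevated + 1)/(ambient + 1)) and 4 kinds of gene. Lines are 95% Wilson intervals for counting error over genes, and labels give called over tested genes. At changes of 1 or more the share goes from 90.9% for lone genes to 5.88% for the lower gene of a pair.

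The size of the test statistic was examined too. Dividing the absolute log2 ratio by the absolute test statistic, both from the authors' deposited table, gives the change that went with 1 unit of the statistic. Its median was 0.779 in lone genes (quartiles 0.686 and 0.940) and 0.758 in shared loci with at most 1 gene at 2 FPKM. It was 0.861 for the higher gene of a pair (0.736 and 1.07) and 1.76 for the lower gene (1.27 and 2.38). Among lower genes at 10 to 50 FPKM with changes under 0.5 it was 1.37, and among lone genes of that level and change 0.700. At 2 to 10 FPKM and changes under 0.5 the values were 1.80 for lower genes and 0.911 for lone genes. The value was thus higher in lower genes in both of these level ranges, without a test of the difference. The scale of the statistic is not stated in the file headers.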

How the data were processed

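RNA-seq of prop roots from 4 ambient and 4 elevated CO2 libraries was used. The tools Trimmomatic 0.36, HISAT2, Cufflinks 2.2.1 and Cuffdiff are named, with no settings, in the submitters' processing notes. Genome build, library normalization and use of strand are not stated there. Per the file headers, the authors deposited FPKM pooled to 1 value per group, the log2 ratio of elevated over ambient CO2, p-value, q-value and the statistic of their test, here treated as a score. Identifiers carry the suffix 3.2. Read depth is unknown, so no interval based on reads is given. The deposited log2 ratio was checked against the FPKM values (largest difference 2.71e-05).

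Loci were grouped by their deposited text and are printed as deposited. Changes were computed as log2((elevated + 1)/(ambient + 1)), a scale that understates changes of low genes, with a pseudocount of 1 FPKM. Pairs needed 2 FPKM in either group. Calls were the authors' (tested, q under 0.05). No test of its own was made, since no column holds a single library, and members are not replicates. Pairing and agreement measures were tested on simulated data. Python 3.11.15, pandas 2.3.3 and numpy 2.4.6 were used.

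The members, thresholds and lists were chosen with earlier results of these data known. Loci were named by fixed rules: loci with 2 called genes or with calls in opposite directions (0 of each), the 8 largest differences, the 5 highest summed FPKM, the 3 with most genes at 2 FPKM (ties by summed FPKM) and the 5 smallest differences among loci whose higher gene moved by at least 1. None of the identifiers matched the 32945 genes of the RefSeq table (assembly Sorghum_bicolor_NCBIv3), so loci are named by position. The 4 further tables hold subsets of these genes and were not used.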

Additional observations from a re-analysis of the deposited data

How the results depend on the processing

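The count of 102 called members, 16 higher and 86 lower, became 63 (7 and 56) at q under 0.01 and 60 (4 and 56) with an absolute change of at least 1, both of which admit fewer genes. It was 88 at 5 FPKM or more and 98 without intermediate identifier numbers. Shares over all tested genes at these limits are not given, so these counts cannot be compared with the background. Within shared loci the median difference ran from 0.20 to 0.34 and Pearson's r from 0.10 to 0.21 over all 10 alternatives. The share of the same sign was 39.7% without a minimum level, where genes at 0 have no sign, and 51.6 to 56.5% otherwise. For neighbours in different loci, no minimum gave a median difference of 0.21 and 42.6% of the same sign, and a lower gene at 20 FPKM or more gave 59.8%. Pearson's r ran there from 0.14 to 0.28. The alternatives on identifier numbers, on 20 FPKM, on gaps under 1 kb and on lone genes were chosen after seeing the data. No paired analysis was possible because only pooled levels are at hand, 1 for ambient and 1 for elevated CO2, while replicate numbers run from 1 to 4 in either group. Leaving out single libraries was not possible either, and what depth limits could not be assessed.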
